A study of Homo sapiens with 4 samples.

Results

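Small nucleolar RNAs (snoRNAs) and the genes that carry them were described in KGN cells, a human line established from a granulosa cell tumor. Members were selected on their mean level, as the rows of the expression table named SNORA, SNORD or SNHG with a number, or GAS5, whose mean over the 4 libraries was at least 0.5 RPKM, the reads scaled by gene length and library size. They were 101 of 33880 genes, namely 81 small loci (44 of the box C/D class, named SNORD, and 37 of the box H/ACA class, named SNORA) and 20 host genes. A further 151 rows of the same names lay below the minimum, and 58 of those were at 0 in every library. Because the mean level chose the members, their levels are given as a description.

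The cells were infected with a lentivirus carrying TOX3, an HMG-box nuclear protein (LV-TOX3), or with the control virus (LV-CON), each diluted 1 to 200, and both groups were selected with 2 mg/ml puromycin for 2 passages. Each group had 2 samples, whose poly(A) RNA was read in pairs of 150 nt. The comparison between the groups asks which RNAs differ when TOX3 is overexpressed. All 4 libraries come from infected and selected cells of this 1 tumor line, so neither group is untreated granulosa cells.

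In the nucleolus, box C/D snoRNAs guide the methylation of ribose in ribosomal RNA, and box H/ACA snoRNAs guide the conversion of uridine to pseudouridine. Most human snoRNAs are cut from the introns of longer transcripts, either of protein-coding genes for ribosomal and nucleolar proteins or of noncoding host genes (SNHG genes and GAS5), whose spliced RNA carries a poly(A) tail and is often removed by nonsense-mediated decay. A finished snoRNA carries no poly(A) tail. In libraries of poly(A) RNA, reads at a small locus can therefore come from the snoRNA, from unspliced or intron-retaining host RNA or from an exon that overlaps it, and these sources cannot be told apart in these values. The study also removed reads with sequencing adapters, and its reads of 150 nt are longer than the median small locus (104 nt). How far this took out reads of finished snoRNAs was not tested.

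The loci on which the results turn are shown with their sequence, read from hg38 on the transcribed strand at the positions of GENCODE v44. Capitals mark a C box (TGATGA within the first 25 bases) and a D box (CTGA within the last 25) in box C/D loci, and the ACA within the last 8 bases of box H/ACA loci. SNORD63B (chr5:138558970-138559039, minus strand) had the most reads of all small loci and is shown with SNORD63 (chr5:138561043-138561110, minus strand), its neighbour in the same gene, with 70.8% identical bases.
SNORD63B: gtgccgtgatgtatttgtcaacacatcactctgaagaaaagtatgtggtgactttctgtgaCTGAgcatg
SNORD63: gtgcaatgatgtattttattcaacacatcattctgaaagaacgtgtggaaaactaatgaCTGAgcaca
Neither holds TGATGA at its start, and both hold the D box. The next 3 are copies of the SNORD116 array on chromosome 15 (plus strand, chr15:25094037-25094128, chr15:25051477-25051571 and chr15:25080142-25080233), shown because they held the most reads of the array. SNORD116-24 shares 92.4% of its bases with SNORD116-14 and 82.3% with SNORD116-1.
SNORD116-24: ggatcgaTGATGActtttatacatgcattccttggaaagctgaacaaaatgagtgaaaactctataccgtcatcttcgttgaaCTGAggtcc
SNORD116-1: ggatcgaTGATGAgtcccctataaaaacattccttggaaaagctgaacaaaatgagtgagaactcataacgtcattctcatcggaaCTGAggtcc
SNORD116-14: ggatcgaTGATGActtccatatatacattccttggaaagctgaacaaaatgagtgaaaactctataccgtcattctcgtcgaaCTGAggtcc
The last 4 come from the 5 small loci of smallest p in each direction of the comparison of the groups, the copy of SNORA67 on chromosome 2 (chr2:39283657-39283791, minus strand), SNORD99 (chr1:28578749-28578822, minus strand), the copy of SNORD56 on chromosome 20 (chr20:35117136-35117207, minus strand) and SNORA60 (chr20:38449370-38449503, plus strand).
SNORA67: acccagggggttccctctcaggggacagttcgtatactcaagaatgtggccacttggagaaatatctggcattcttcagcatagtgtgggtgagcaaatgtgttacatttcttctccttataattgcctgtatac
SNORD99: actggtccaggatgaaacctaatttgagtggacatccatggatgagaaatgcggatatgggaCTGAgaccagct
SNORD56: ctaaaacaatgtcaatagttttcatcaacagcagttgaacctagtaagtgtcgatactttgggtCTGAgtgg
SNORA60: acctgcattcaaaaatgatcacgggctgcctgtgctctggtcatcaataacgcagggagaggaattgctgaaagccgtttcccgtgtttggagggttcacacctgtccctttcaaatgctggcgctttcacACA
In the SNORA67 copy no ACA was found in the window, and SNORD99 and the SNORD56 copy held the D box alone. Among all box C/D loci searched, the C and D boxes were both found in 29 of 43 members (67.4%) and in 48 of 82 searched rows of that class (58.5%). The ACA was found in 30 of 37 box H/ACA members (81.1%) and in 113 of 141 searched rows of that class (80.1%). The search covered only these exact letters in these windows.

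The LV-CON libraries held 17757132 and 17858746 reads and the LV-TOX3 libraries 17413376 and 16403371 (replicate 1 first throughout). TOX3 was at 0 reads in LV-CON and at 1586 and 1428 in LV-TOX3. Of 8 granulosa markers 7 entered the test, with FOXL2 at 10.5 to 11.0 RPKM and NR5A1 at 21.0 to 21.7, while INHA was at 0.703 to 1.09 and AMHR2 at 0.0159 to 0.147. FSHR had 5.15 and 5.95 RPKM in LV-CON versus 9.62 and 10.0 in LV-TOX3 (limma, adjusted p = 0.55). It was the 1 marker of the 7 past the looser threshold defined with the comparison of the groups, which 4.92% of all tested genes passed. CYP19A1 had 7.08 and 4.25 RPKM in LV-CON versus 13.8 and 7.37 in LV-TOX3 (limma, adjusted p = 0.73). Both LV-TOX3 libraries lay above both LV-CON libraries for 3 of the 7 (FSHR, CYP19A1 and FOXL2), as for 17.0% of all tested genes. AMH and GATA4 overlapped between the groups. The theca markers CYP17A1 and INSL3 were at or near 0. The epithelial markers summed to 0.265 to 0.629 RPKM, the endothelial ones to 0.173 to 0.228 and the leukocyte ones to 0.501 to 0.763. CD68 was at 0, and these sums of the groups overlapped. Whether the 2 libraries of a group stem from separate cultures is not stated, and p-values then reflect only how far these samples differ, which may be technical.

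Dividing by the worth of 1 read turned RPKM into whole reads (relative tolerance 1e-08) for 29087 genes, leaving 1 of those above 0. Such steps fix the reads of a gene only up to a whole factor, which was set by its annotated length. The length used equals the annotated one for all 81 small loci. Over all genes it equals an annotated length for 13522. For other annotated genes it was mostly the first multiple near or above the shortest annotated transcript. Read numbers of genes other than the small loci are therefore less firm. At a locus of 100 nt, 1 read was worth 0.563 and 0.560 RPKM in LV-CON against 0.574 and 0.610 in LV-TOX3. The small loci were 68 to 272 nt long (median 104), and an RPKM of several units therefore stood for few reads. Their mean was 0.75 to 31.5 reads per library with a median of 3.25, and 58 of the 81 had a mean under 5 reads. Reads were present in all 4 libraries at 41 loci. The number of loci at 0 was 15 and 13 in LV-CON against 21 and 13 in LV-TOX3. All 81 together held 1512 reads, or 0.00199% and 0.00236% of the LV-CON libraries and 0.00196% and 0.00241% of the LV-TOX3 libraries. The 10 loci with the most reads held 42.7% of them.

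**Figure D1:**
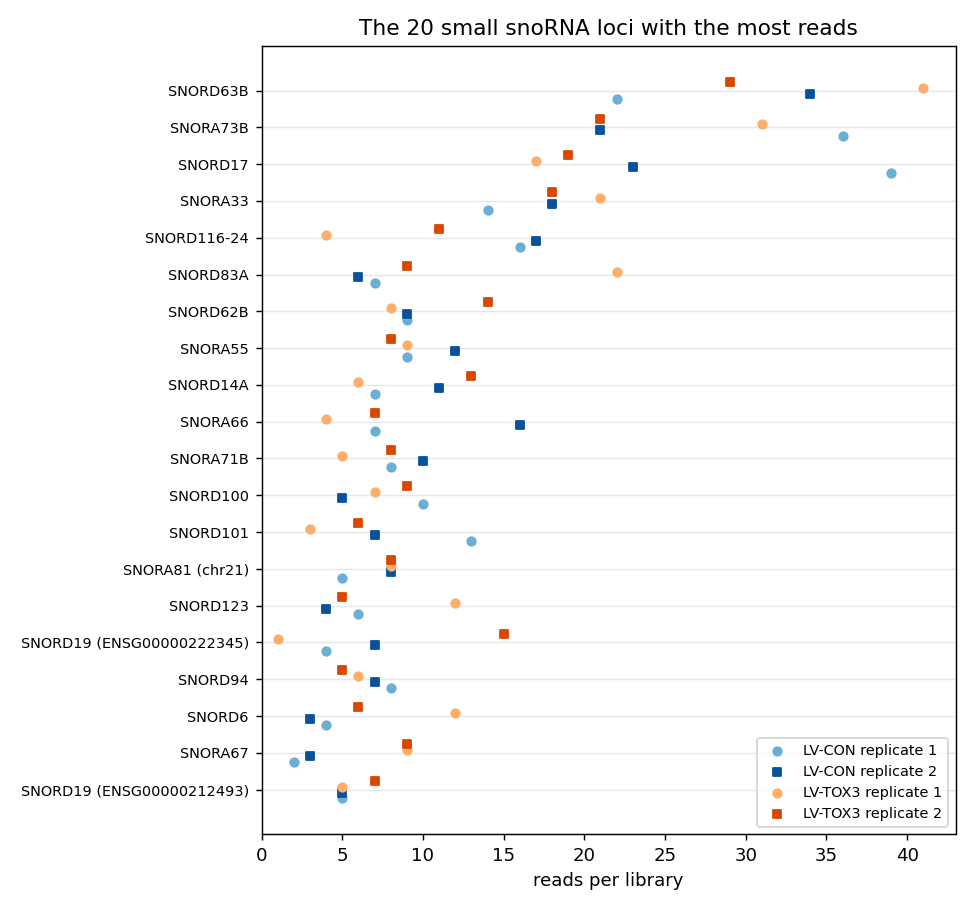
Reads per library (x axis) at the 20 small loci with the most reads (y axis), with a point for each of the 4 libraries. SNORD63B lies at 22 to 41 reads, the loci further down lie mostly under 15, and the points of the groups are mixed for most loci.

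The locus with the highest level was SNORD63B, a box C/D snoRNA inside HSPA9, which encodes the mitochondrial heat shock protein mortalin. SNORD63B had 22 and 34 reads in LV-CON versus 41 and 29 in LV-TOX3, which are 17.7, 27.2, 33.6 and 25.3 RPKM, and the groups overlapped. SNORD63 had 3 and 2 reads in LV-CON versus 8 and 1 in LV-TOX3. Both lie in exons of HSPA9 transcripts annotated as intron-retaining. HSPA9 itself stood at a mean of 146 RPKM, so SNORD63B was at 17.8% of its host on the RPKM scale and SNORD63 at 2.02%. Reads of 150 nt are longer than the median small locus (104 nt), so a read can reach beyond the length that RPKM divides by. RPKM of a small locus and of its host are therefore not directly comparable, and such percentages, here and below, are not shares of host RNA.

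SNORA73B, a box H/ACA snoRNA in an intron of SNHG3, had 36 and 21 reads in LV-CON versus 31 and 21 in LV-TOX3. In each group the replicate 1 library was the higher. A further gene on the same strand also holds SNORA73B, and the same is true of SNORD17. SNORD17, in an intron of SNX5 (a sorting nexin of the endosome), had 39 and 23 reads in LV-CON versus 17 and 19 in LV-TOX3. The LV-CON libraries lay above the LV-TOX3 libraries and differed from each other by more than the gap between the groups (log2FC = -0.65, SE 0.27, adjusted p = 0.73 in limma). Each log2 fold change (log2FC, with its standard error, SE) compares LV-TOX3 with LV-CON on the log2(RPKM + 0.1) scale, which understates the change of low values.

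Several abundant small loci lie in introns of ribosomal protein genes, of which 8 held 10 members. RPS12, a protein of the small ribosomal subunit, carries SNORA33, SNORD100 and SNORD101. SNORA33 had 14 and 18 reads in LV-CON versus 21 and 18 in LV-TOX3, SNORD100 had 10 and 5 against 7 and 9, and SNORD101 had 13 and 7 against 3 and 6. The 3 loci did not share an order of the libraries, and their sum was 37 and 30 reads in LV-CON versus 31 and 33 in LV-TOX3. RPS12 was at a mean of 550 RPKM, and its 3 loci were at 1.03% to 1.43% of that level.

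SNORD83A, in an intron of RPL3 of the large subunit, had 7 and 6 reads in LV-CON versus 22 and 9 in LV-TOX3, so that LV-TOX3 replicate 1 stood apart from the other 3 libraries (log2FC = 1.17, SE 0.39, adjusted p = 0.72 in limma). SNORD14A in RPS13 had 7 and 11 reads in LV-CON versus 6 and 13 in LV-TOX3, and SNORA66 in RPL5 had 7 and 16 against 4 and 7. In these last loci the replicate 2 library was the higher in each group. SNORD62B, in an intron of a protein-coding gene, had 9 and 9 reads in LV-CON versus 8 and 14 in LV-TOX3. SNORA55, in an exon of PABPC4 (a cytoplasmic poly(A)-binding protein), had 9 and 12 reads in LV-CON versus 9 and 8 in LV-TOX3, and the groups overlapped for both.

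The minimum level that chose the members is described here by position in a host, with no test. Of the rows with an annotated position, 20 of the 32 that lie in an exon on the same strand were members (62.5%), as were 50 of 131 in an intron (38.2%), 10 of 59 with no gene on the same strand (16.9%) and 1 of the 5 that lie partly in an exon. By class, the shares in an exon and in an intron were 59.1% and 55.1% for box C/D rows, and 70.0% and 28.0% for box H/ACA rows (7 of 10 and 23 of 82). Of the 22 box C/D rows in an exon, 18 are copies of SNORD116 in SNHG14, and 10 of those were members. Protein-coding genes held 44 of the 81 small members, SNHG genes 19, other long noncoding RNAs 4 and transcribed pseudogenes 4, while 10 had no host. Where several genes on the same strand held a locus, 1 was taken as its host. An SNHG gene or GAS5 came first, then a protein-coding gene, then other genes, with the shorter preferred. Positions and host counts rest on this choice. The minimum of 0.5 RPKM leaves out lower rows and so bounds the ratios of members to their hosts from below. On the RPKM scale a small locus stood at a median of 14.5% of its host over the 68 loci whose host had a value, and 31 were below 10%. The lowest were SNORD15B at 0.504% of RPS3 and SNORA65 at 0.514% of RPL12. On that scale 5 of these 68 were higher than their host, led by SNORD116-24 at 312% of SNHG14 and SNORD93 at 163% of SNHG26. Since RPKM is not comparable between such unlike lengths, this does not show more RNA from the locus than from its host. SNORD104 (5, 2, 2 and 0 reads) has no such ratio, since its host SNHG25 is listed at 0 in all 4 libraries. At 17 members a gene also lies on the opposite strand, and no source used here says that strand was used in counting, so reads of that gene cannot be told apart from theirs.

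SNHG14 is the long paternally expressed transcript of the Prader-Willi region and carries the SNORD116 copies in tandem, of which the 10 members lie in annotated exons. The 10 SNORD116 members had pairwise identities of 70.1% to 99.0% (median 85.9%), so the split of reads between copies is uncertain and their sum is the firmer value. They held 33 and 49 reads in LV-CON versus 20 and 32 in LV-TOX3, a ratio of 0.673 in RPM (reads scaled by library size only). The groups overlapped, since LV-CON replicate 1 and LV-TOX3 replicate 2 were at 1.86 and 1.95 RPM. SNORD116-24 alone had 16 and 17 reads in LV-CON versus 4 and 11 in LV-TOX3 (log2FC = -1.21, SE 0.49, adjusted p = 0.72 in limma), and its log2FC was -1.97 to -0.46 with 1 library left out. SNORD116-14 had 4 and 9 against 1 and 3, and SNORD116-13 had 0 and 1 against 4 and 2, so copies went in opposite directions. The host SNHG14 had 1815 and 1871 reads in LV-CON versus 1873 and 1648 in LV-TOX3, giving a log2FC of 0.01 with an SE of 0.12.

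**Figure D2:**
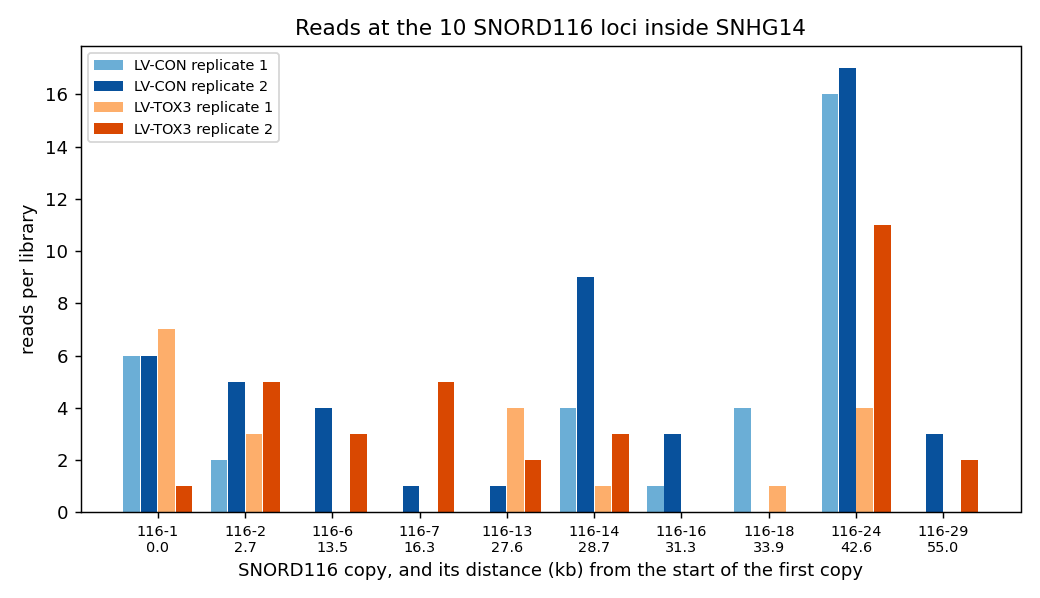
Reads per library (y axis) at the 10 SNORD116 members, ordered by distance in kb from the start of the first copy (x axis), with a bar for each of the 4 libraries. SNORD116-24 holds the most reads (16 and 17 in LV-CON against 4 and 11 in LV-TOX3), and most other bars stand at 5 reads or fewer.

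The summed reads of the small loci did not separate the groups. The 81 loci held 353 and 422 reads in LV-CON versus 341 and 396 in LV-TOX3, or 19.9 and 23.6 against 19.6 and 24.1 RPM. The mean of LV-TOX3 was 1.00 times that of LV-CON, and replicate 2 was 1.19 times replicate 1 in LV-CON and 1.23 times in LV-TOX3. Box C/D loci had 208 and 228 reads in LV-CON versus 199 and 241 in LV-TOX3 (ratio 1.07), and box H/ACA loci had 145 and 194 against 142 and 155 (ratio 0.925). Both classes overlapped between the groups. In bulk RNA, fewer cells with a transcript and less of it per cell cannot be told apart.

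The difference between replicate numbers was largest in the loci with few reads. In those with the most reads it was reversed, but within counting error. The 58 loci with a mean under 5 reads held 113 and 173 reads in LV-CON versus 95 and 156 in LV-TOX3, so that replicate 2 was, in LV-CON then LV-TOX3, 1.52 and 1.74 times replicate 1 in RPM. For the 490 other tested genes with a mean under 5 reads these ratios were 1.10 and 1.27. For the 97 of them that are small RNA loci of other names they were 1.06 and 1.42. The 16 loci with a mean of 5 to 10 reads held 97 and 121 reads in LV-CON versus 102 and 119 in LV-TOX3, with a ratio of 1.24 in each group, where 467 other tested genes of that range gave 1.11 and 1.15. The 7 loci with at least 10 reads held 143 and 128 against 144 and 121, so that replicate 2 was at 0.890 and 0.892 of replicate 1. For these 7 the exact 95% Poisson intervals were 6.79 to 9.49 and 5.98 to 8.52 RPM in LV-CON. In LV-TOX3 they were 6.97 to 9.74 and 6.12 to 8.81, so the replicates overlapped in each group. The sets of 16 and of 7 loci both overlapped between the groups. Together these 23 loci held 240 and 249 reads in LV-CON versus 246 and 240 in LV-TOX3, with ratios of 1.03 and 1.04. In RPM these were 13.5 and 13.9 for LV-CON, with 14.1 and 14.6 for LV-TOX3. The LV-TOX3 values lay above the LV-CON values, and the exact 95% Poisson intervals of the lowest (11.9 to 15.3) and the highest (12.8 to 16.6) overlapped. These intervals cover counting error only and take each read as a separate fragment. A value higher in replicate 2 in both groups was found for 32 of the 81 loci (39.5%) and lower in both for 14 (17.3%), against 34.3% and 27.5% of all tested genes. No label says what the replicate numbers share. With the replicate number as a block in the limma fit, 28 of the 101 members (27.7%, against 12.4% of all tested genes) had an unadjusted p under 0.05, where 18 did without it, and 0 passed the adjusted p. Without the block, 13.0% of tested genes with a mean under 20 reads had such a p, against 6.8% of all tested genes. That share was not computed with the block, so the members are set there beside genes with mostly more reads.

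**Figure D3:**
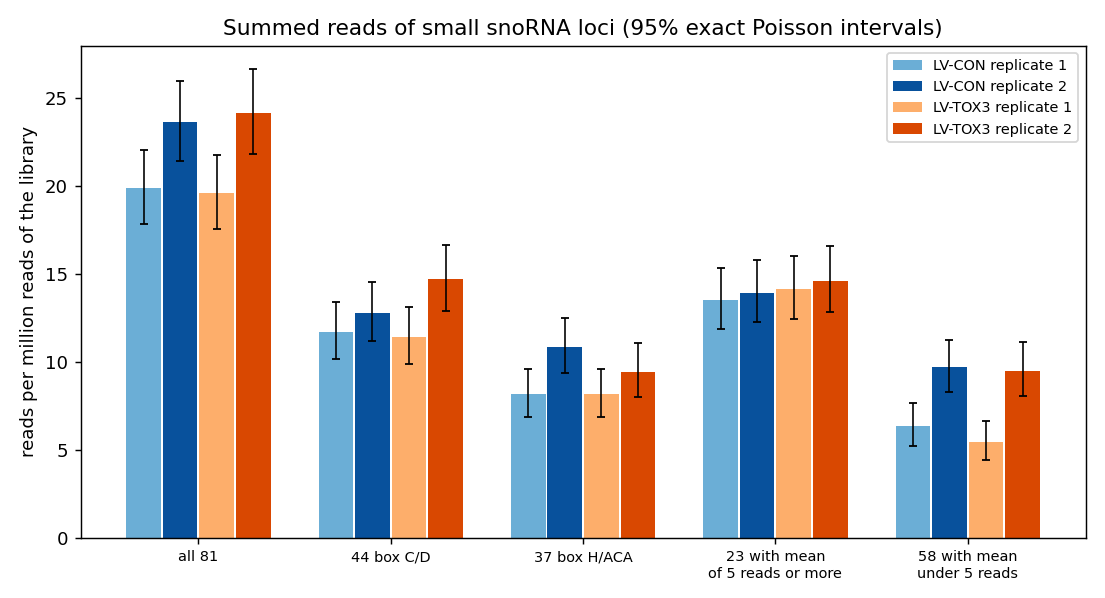
Summed RPM (reads scaled by library size) of the small loci (y axis), for all 81, by class and by mean reads (x axis), with a bar for each library and exact 95% Poisson intervals, which cover counting error only. The 58 loci with few reads stand at 6.36 and 5.46 RPM in the replicate 1 libraries and at 9.69 and 9.51 in the replicate 2 libraries.

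In small clusters in NCL and GNL3 the replicate 2 library was also the higher in each group, and they were chosen after their values were seen. SNORA75 and SNORD20, both in NCL, had together 3 and 15 reads in LV-CON versus 2 and 12 in LV-TOX3. NCL, which encodes the nucleolar protein nucleolin, had lower values in LV-TOX3, as given with the other protein-coding hosts. The 3 loci of GNL3 (SNORD69 and both SNORD19 rows), which encodes nucleostemin of the nucleolus, had 10 and 18 reads in LV-CON versus 8 and 26 in LV-TOX3. The groups overlapped for both clusters.

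Spread between libraries of a group exceeded the counting error of independent reads. Whether the mates of a pair were counted singly or as 1 is not stated, and mates counted singly would raise these values. Over the loci with at least 5 reads in a pair of libraries, chi-square per degree of freedom was 1.90 between the LV-CON libraries (47 loci) and 1.95 between the LV-TOX3 libraries (46 loci). Counting error alone gives a value near 1 if each count is a separate fragment. For the small loci with a mean under 5 reads the values were 2.38 and 2.03, against 1.77 and 1.84 for other tested genes with a mean under 5. For those with a mean of at least 5 they were 1.39 and 1.87, against 2.11 and 2.04 for other tested genes with a mean of 5 to 32. Between libraries of different groups the small loci gave 1.31 to 2.50, a range that holds both within-group values.

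No member passed an adjusted p of 0.05 in limma over the 14184 genes tested, where TOX3 alone passed (0.00705% of genes). The smallest adjusted p of a member was 0.55 from limma, 18 members had an unadjusted p under 0.05 (as did 6.8% of all tested genes), and limma-voom on the recovered reads also called 0 members, with 5 at an unadjusted p under 0.05, or 4.95% against 6.88% of all tested genes in that fit. A looser threshold (p under 0.05 without adjustment, and a log2 fold change beyond 0.3 in size) took 9 small loci as higher and 7 as lower in LV-TOX3, or 19.8% of the 81. Of these 16, 6 had a mean under 0.5 RPKM in 1 group and so met the minimum only through the group in which they were high, as did 24 of all 81. All tested genes gave 2.28% higher and 2.64% lower, 4.92% in all, and the 1541 tested genes with a mean under 20 reads gave 6.62% and 6.36%, or 13.0%. Leaving out 1 library leaves a group of 1, which is then assumed to vary like the other group. The counts moved in such fits, to 15 higher without LV-CON replicate 2, to 11 lower without LV-CON replicate 1, to 13 lower without LV-TOX3 replicate 1, and to 15 lower without the other LV-TOX3 library, where 1.38% to 2.86% of all tested genes were higher and 1.96% to 2.996% lower. The median log2 fold change of the small loci was -0.12, with 38 positive and 43 negative, against -0.01 over all genes. Their median absolute log2 fold change was 0.91, with a median standard error of 0.88, against 0.11 and 0.13 over all genes and 0.52 and 0.50 over the tested genes with a mean under 20 reads.

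**Figure D4:**
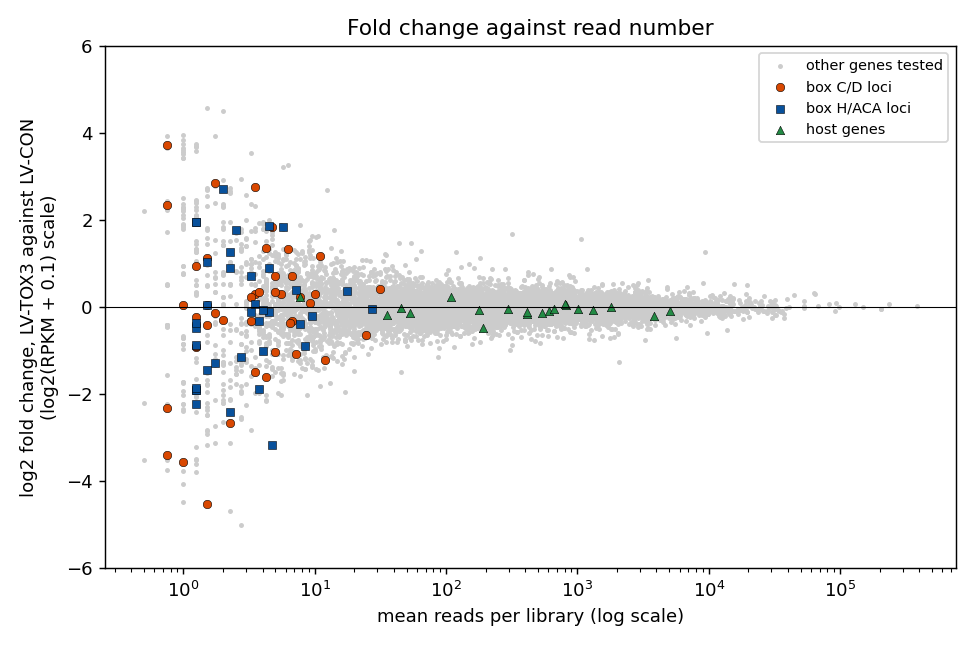
Log2 fold change of LV-TOX3 against LV-CON on the log2(RPKM + 0.1) scale (y axis) against mean reads per library (x axis, log scale), for box C/D loci, box H/ACA loci, host genes and the other tested genes, with TOX3 beyond the upper edge. The small loci span -4.53 to 3.72 at few reads, where both ends are loci at 0 reads in 1 group whose value depends on the pseudocount of 0.1, and the host genes span -0.49 to 0.22.

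The groups did not overlap for 15 small loci with LV-TOX3 higher and 11 with LV-TOX3 lower, or 18.5% and 13.6%. The shares were 17.0% and 20.6% of all tested genes and 19.3% and 14.5% of those with a mean under 20 reads. By class, 7 box C/D loci lay higher and 8 lower, and 8 box H/ACA loci lay higher and 3 lower. With 2 libraries a group, the smallest p of an exact permutation test is 0.333, and single loci were therefore tested only in the fit across genes.

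Of the small loci higher in LV-TOX3, the copy of SNORA67 in an intron of MAP4K3 (a kinase gene) had the smallest p. It had 2 and 3 reads in LV-CON versus 9 and 9 in LV-TOX3, giving a log2FC of 1.85 with an SE of 0.21 (limma, adjusted p = 0.55). MAP4K3 itself had 8.28 and 8.58 RPKM in LV-CON versus 8.94 and 9.38 in LV-TOX3. SNORD99 of SNHG12 had 2 and 2 reads in LV-CON versus 5 and 10 in LV-TOX3, whereas its host SNHG12 had 399 and 482 reads against 408 and 366 and overlapped. SNORD6, in an intron of TAF1D (a factor of RNA polymerase I), had 4 and 3 reads against 12 and 6. The copy of SNORA12 on chromosome 2 had 1 and 3 against 5 and 9, and the SNORD38 row on chromosome 8 had 0 and 0 against 2 and 1, at or under a floor of 3 reads in each library, so no fold is given. Neither has a host on its strand, and they lie opposite PPP4R3B (SNORA12) and ADAM9 (SNORD38), whose reads cannot be told apart from theirs. The other 4 higher loci at this threshold were SNORD83A, SNORD116-13, SNORA22 (1 and 0 reads against 5 and 2) and SNORA59A (3 and 2 against 4 and 4).

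Of the loci lower in LV-TOX3, the copy of SNORD56 in an intron of EDEM2 had 2 and 4 reads in LV-CON versus 0 and 0 in LV-TOX3 (limma, adjusted p = 0.55). The mean of its LV-CON libraries does not exceed a floor of 3 reads per library, so no fold is given, nor is one for SNORD116-16 (1 and 3 reads against 0 and 0) and SNORD11 of NOP58 (1 and 2 against 0 and 0). SNORA60, in an exon of SNHG11, had 5 and 6 reads in LV-CON versus 3 and 2 in LV-TOX3, giving a log2FC of -1.02 with an SE of 0.23 (limma, adjusted p = 0.66). SNHG11 overlapped between the groups, with 190 and 180 reads in LV-CON versus 149 and 190 in LV-TOX3. The SNORA63 row on chromosome 1, which has no host on its strand and lies opposite INPP5B, had 5 and 7 reads against 2 and 1. SNORD94 had 8 and 7 against 6 and 5, and SNORD116-14 was the other lower locus at this threshold. Adjusted p-values from limma were 0.55 to 0.72 over these 16 loci. Of the small members, 13 carry only an identifier and no name in GENCODE v44, among them the SNORA67, SNORA12 and SNORD56 copies named here. As copies of named snoRNAs they may share reads with other copies.

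Members just inside the minimum of 0.5 RPKM show how few reads it took. SNORD11 at 0.501 RPKM had 1 and 2 reads in LV-CON and none in LV-TOX3, SNORD15B at 0.514 had 1, 0, 0 and 4 reads, and SNORA80B at 0.517 had 0, 4, 1 and 0. Just outside lay SNORA79B at 0.495 RPKM with 1, 0, 2 and 2 reads, a SNORA75 copy at 0.490 with 0, 0, 3 and 2, and a SNORA31 copy at 0.469 with 0, 1, 2 and 0. The 147 small rows under the minimum summed to 37 and 40 reads in LV-CON versus 57 and 63 in LV-TOX3, or 2.08 and 2.24 against 3.27 and 3.84 RPM. For these rows the groups did not overlap, at a ratio of 1.65, on 0.252 to 0.429 reads per row and library. With them, all 228 small rows held 390 and 462 against 398 and 459, a ratio of 1.06 in RPM.

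The 20 host genes were measured with far more reads, from 5 to 5404 per library. GAS5 and SNHG5 had the highest levels. GAS5 (chr1:173858559-173868882), a growth-arrest transcript and host of many box C/D snoRNAs, had 82.7 and 83.3 RPKM in LV-CON versus 77.4 and 79.3 in LV-TOX3. SNHG5 (chr6:85650491-85678932) had 80.2 and 88.1 RPKM in LV-CON versus 73.5 and 72.3 in LV-TOX3. For both genes the LV-CON libraries lay above the LV-TOX3 libraries. SNHG8 followed with 64.6 and 62.3 RPKM in LV-CON versus 69.4 and 54.2 in LV-TOX3, where the LV-TOX3 libraries lay on either side of LV-CON.

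**Figure D5:**
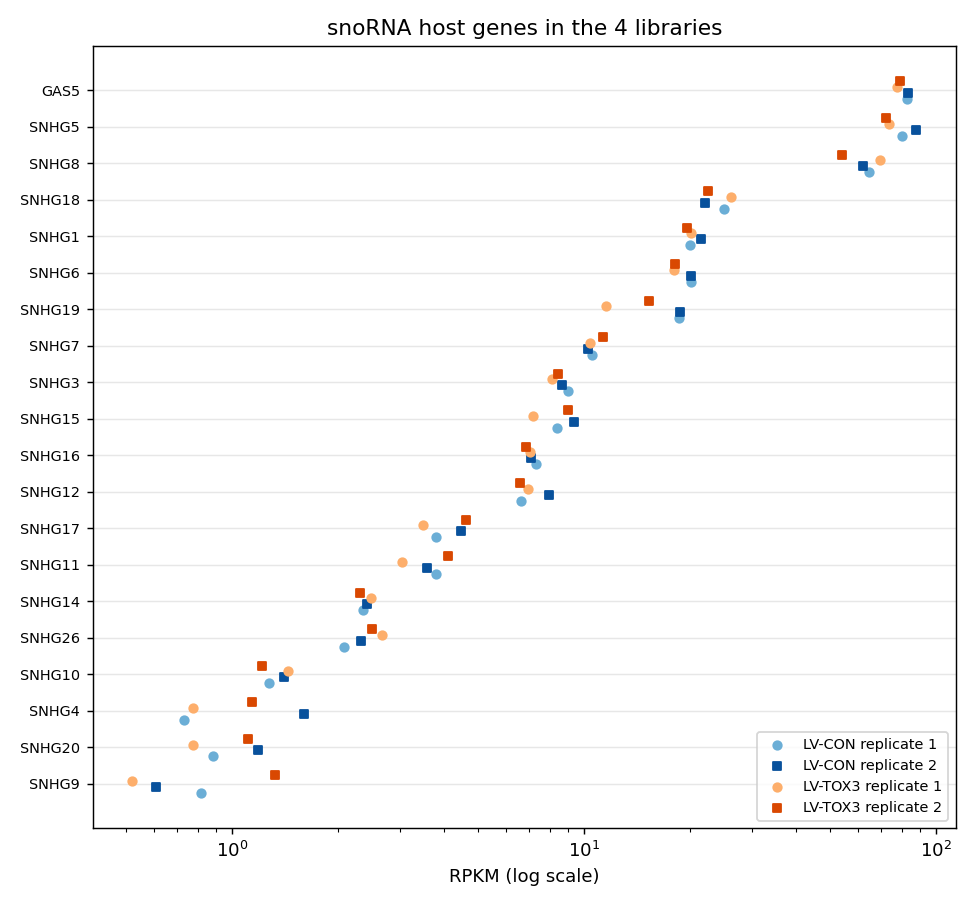
RPKM (x axis, log scale) of the 20 host genes (y axis, ordered by mean) with a point for each of the 4 libraries. GAS5, SNHG5 and SNHG8 stand above 50 RPKM and SNHG9 at 0.521 to 1.33, and for SNHG19 both LV-TOX3 points (11.6 and 15.3) lie below both LV-CON points (18.6 and 18.8).

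In order of mean level, SNHG18, SNHG1, SNHG6 and SNHG19 came next at 11.6 to 26.3 RPKM over all libraries. SNHG7, SNHG3, SNHG15, SNHG16 and SNHG12 followed at 6.61 to 11.4, SNHG17, SNHG11, SNHG14 and SNHG26 at 2.08 to 4.63, and SNHG10, SNHG4, SNHG20 and SNHG9 at 0.521 to 1.60. Neighbours in this order whose libraries did not overlap were SNHG5 and SNHG8, SNHG8 and SNHG18, SNHG18 and SNHG1, SNHG19 and SNHG7, SNHG7 and SNHG3, SNHG12 and SNHG17, SNHG11 and SNHG14, and SNHG26 and SNHG10. The other neighbours, GAS5 and SNHG5 among them, overlapped in level.

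Summed over the 20 host genes, LV-CON had 18873 and 19583 reads and LV-TOX3 17732 and 16629. In RPM these were 1063 and 1097 against 1018 and 1014, so the groups did not overlap, and the ratio was 0.941. GAS5 and SNHG5 alone gave 9316 and 9798 reads in LV-CON versus 8470 and 8037 in LV-TOX3, a ratio of 0.910, and the other 18 host genes a ratio of 0.972. Log2 fold changes were negative for 15 of the 20 and positive for 5, and their median was -0.06 against -0.01 over all genes. Both LV-TOX3 libraries lay below both LV-CON libraries for 6 of the 20 (SNHG19, SNHG5, SNHG6, GAS5, SNHG3 and SNHG16) and above them for 1 (SNHG26), or 30.0% and 5.0%, against 20.6% and 17.0% of all tested genes.

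SNHG19 (chr16:2154792-2155405) had the largest log2 fold change among the host genes. It was the 1 host gene past the looser threshold, or 5.0% of the 20 against 4.92% of all tested genes. It had 226 and 230 reads in LV-CON versus 138 and 172 in LV-TOX3, which are 18.7 ± 0.157 and 13.5 ± 2.65 RPKM (SD, n = 2), giving a log2FC of -0.49 with an SE of 0.15 (limma, adjusted p = 0.70). With 1 library left out its log2 fold change ran from -0.69 to -0.29, and it did not pass that threshold without LV-CON replicate 1, without LV-CON replicate 2 or without LV-TOX3 replicate 1. SNHG5 had 3981 and 4394 reads in LV-CON versus 3574 and 3314 in LV-TOX3, or 84.2 ± 5.53 and 72.9 ± 0.813 RPKM (SD, n = 2), giving a log2FC of -0.21 with an SE of 0.07 (limma, adjusted p = 0.72).

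SNHG6 had 447 and 448 reads in LV-CON versus 391 and 372 in LV-TOX3, giving a log2FC of -0.15 with an SE of 0.07 (limma, adjusted p = 0.73). GAS5 had 5335 and 5404 reads against 4896 and 4723, giving a log2FC of -0.08 with an SE of 0.06 (limma, adjusted p = 0.85). SNHG26 had 97 and 109 reads in LV-CON versus 122 and 108 in LV-TOX3, giving a log2FC of 0.22 with an SE of 0.13 (limma, adjusted p = 0.80). For SNHG26 the groups were apart in RPKM although the raw reads overlapped. The remaining 15 host genes had log2 fold changes of -0.19 to 0.22, and the smallest adjusted p among the host genes was 0.70 from limma.

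Small loci with a noncoding host among the members can be set beside that host in the same libraries. SNORD93 in SNHG26 had 1, 9, 4 and 6 reads, SNORD123 in SNHG18 had 6, 4, 12 and 5, and SNORA73B in SNHG3 had 36, 21, 31 and 21, in the order LV-CON 1 and 2 and LV-TOX3 1 and 2. SNHG18 had 867, 770, 893 and 720 reads in the same order and SNHG3 had 656, 634, 580 and 567. The 3 SNORA71 loci of SNHG17 together had 10, 19, 8 and 17 reads, and SNHG17 had 283, 334, 254 and 318. The SNORA71 loci and SNHG17 were both higher in the replicate 2 library of each group. With 4 libraries no correlation between a locus and its host is given.

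All 8 core proteins of the snoRNA particles had negative log2 fold changes in the fit of the 4 libraries, of which NOP56 turned positive under median ratio scaling (0.0033), without LV-CON replicate 2 (0.22) and without LV-TOX3 replicate 1 (0.11), and NOP58 without LV-CON replicate 2 (0.023). None of them passed an adjusted p of 0.05 in limma, with 2 (GAR1 and NHP2) at an unadjusted p under 0.05. For all 4 core proteins of the box H/ACA particle the LV-TOX3 libraries lay below the LV-CON libraries, and 1 of them passed the looser threshold, where 20.6% and 2.64% of all tested genes did so in that direction. This was GAR1, at 15.7 and 13.3 RPKM in LV-CON versus 9.49 and 9.68 in LV-TOX3, giving a log2FC of -0.59 with an SE of 0.11 (limma, adjusted p = 0.66). NHP2, NOP10 and the pseudouridine synthase DKC1 had log2 fold changes of -0.21, -0.17 and -0.14. The median of the 4 was -0.19, against -0.01 over all genes.

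In the box C/D particle, 0 of the 4 core proteins passed the threshold. The methyltransferase FBL (fibrillarin) had 40.5 and 32.4 RPKM in LV-CON versus 30.3 and 28.6 in LV-TOX3, giving a log2FC of -0.30 with an SE of 0.12 (limma, adjusted p = 0.73), and FBL and SNU13 did not overlap between the groups. NOP58 and NOP56, the scaffold proteins, had log2 fold changes of -0.08 and -0.01. Of 12 snoRNP assembly factors, 8 were negative and 4 positive and 0 passed, with ZNHIT6 at -0.50, ZNHIT3 at -0.18, and the ATPase RUVBL2 at -0.15. Of 5 proteins that bind the U3 snoRNA or its processome, 3 were negative and 2 positive. UTP3 passed at a log2 fold change of -0.45, where 2.64% of all tested genes passed in that direction.

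Of 10 factors of nonsense-mediated decay, 8 had negative and 2 positive log2 fold changes, and 3 passed the threshold, all lower in LV-TOX3, as did 2.64% of all tested genes, of which 7551 were negative and 6633 positive. UPF3A had 10.9 and 10.8 RPKM in LV-CON versus 8.79 and 8.66 in LV-TOX3, UPF2 had 7.55 and 8.22 against 5.97 and 6.22, and UPF3B had 6.38 and 8.05 against 5.11 and 5.84. The helicase UPF1 overlapped between the groups, at 8.22 and 11.9 against 8.34 and 9.82 RPKM. Of 15 genes of the exosome and of trimming at the 3′ end of snoRNAs, 10 were positive and 5 negative and 0 passed, with EXOSC9 at 0.21, EXOSC8 at -0.16, the nuclease DIS3 at 0.15 and EXOSC6 at -0.13. DBR1, which opens the lariat of an excised intron, had a log2 fold change of 0.21. No gene of these lists passed an adjusted p of 0.05, and the smallest was 0.66 from limma. At the looser threshold 5 genes of these lists were lower, and 3 without LV-TOX3 replicate 2.

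Of the 36 tested protein-coding genes that hold a small member, 26 had negative and 10 positive log2 fold changes, with a median of -0.06. NCL had 94.6 and 97.9 RPKM in LV-CON versus 67.2 and 61.1 in LV-TOX3, giving a log2FC of -0.59 with an SE of 0.08 (limma, adjusted p = 0.55). It was the 1 gene of this list past the looser threshold, or 2.78% of the 36 against 4.92% of all tested genes. Its loci SNORA75 and SNORD20 overlapped between the groups. The ribosomal protein gene RPL37 and the importer TOMM20 of the mitochondrial outer membrane had log2 fold changes of -0.14 and -0.20. Of 103 other small RNA loci that were tested, 59 were positive and 44 negative, and 9 were higher and 8 lower at the looser threshold, or 16.5%, against 4.92% of all tested genes and 13.0% of those with a mean under 20 reads. Leaving out LV-CON replicate 1 gave 25 higher, leaving out LV-CON replicate 2 gave 14 higher, leaving out LV-TOX3 replicate 1 gave 16 higher and 17 lower, and leaving out LV-TOX3 replicate 2 gave 20 lower.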

How the data were processed

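Per the study's methods, the authors enriched RNA with oligo(dT) beads and cleaned the paired 150 nt reads by SOAPnuke, which removed reads with adapters. They mapped to hg38 by HISAT2, quantified by expectation maximization and used ComBat to remove effects of batch. The version of each of these tools, and whether ComBat came before the deposited values, is not given in the sources used here. Values in whole steps of 1 read are not what expectation maximization or ComBat usually gives; which step made them is not known, and recovered reads and their Poisson intervals rest on these steps. The deposited values are RPKM per gene and library. Reads were recovered from them as whole multiples with gene lengths, and the recovery was tested on simulated data. GENCODE v44 (hg38) gave positions and hosts and held 33498 of the gene identifiers.

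Groups came from the sample titles. The 14184 genes averaging 0.5 RPKM or more entered a two-sided limma fit of log2(RPKM + 0.1) with a trended prior (limma 3.58.1, R 4.3.3) and no block, with Benjamini-Hochberg adjustment over all of them. The looser threshold was p under 0.05 without adjustment and a log2 fold change beyond 0.3 in size. Sums of reads were divided by library totals and given without a test. Python 3.11.15, numpy 2.4.6, pandas 2.3.3 and scipy 1.17.1 were used.

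The members and the gene lists were chosen with earlier results of these data known. Named were all host genes, the 10 small loci with the most reads, the 5 with the smallest p in each direction, the 3 on each side of the minimum, up to 4 genes per list and hosts of named loci. Further loci in the same hosts or families, and the rest of those past the unadjusted threshold, were named after their values were seen. Alternatives were other pseudocounts and filters, median ratio scaling, the replicate number as a block, limma-voom on the recovered reads and each library left out.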

Additional observations from a re-analysis of the deposited data

How the results depend on the processing

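With 2 libraries per group and few reads per small locus, single loci can be judged only coarsely, and counts at the unadjusted threshold moved with the settings, while 0 members passed the adjusted p under any of them. Over all genes 0 or 1 passed, except 607 of 14184 in limma-voom with the replicate block. The cause was not tested. Small loci higher in LV-TOX3 (9) numbered 5 without a filter on low values, 2 with at least 10 mean reads (7 loci tested), 1 with limma-voom and 5 with limma-voom and a replicate block, which was chosen after seeing the data. Those lower (7) numbered 2, 13, 2 and 2 with at least 10 mean reads, with the replicate block in limma, with limma-voom and with limma-voom and the block. With the replicate block 28 members (27.7%, against 12.4% of all tested genes) had an unadjusted p under 0.05 and the smallest adjusted p was 0.182, and in limma-voom with the block these were 9 (8.91%, against 14.3%) and 0.0768. The shares among genes with few reads were not computed for the fits with a block. Replicate numbers are only names in the labels. Over all tested genes the differences of replicate 2 from replicate 1 in both groups correlated at 0.19, over the small loci at 0.15 and over the host genes at 0.05.

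Other small RNA loci higher in LV-TOX3 (9) numbered 16 without a filter, 5 at a minimum of 1 RPKM, 0 with at least 10 mean reads, 18 with the replicate block, 1 with limma-voom and 2 with limma-voom and the block, and those lower (8) numbered 4 at 1 RPKM, 0 with at least 10 reads, 13 with the block, and 0 with limma-voom with or without it. With 1 library left out, small loci numbered 8 to 15 higher and 6 to 15 lower, host genes 0 higher and 0 to 1 lower, genes of the protein lists 0 to 1 higher and 3 to 4 lower (main 5), protein-coding genes holding a member 0 higher and 1 to 3 lower, and other small RNA loci 11 to 25 higher and 7 to 20 lower. The log2 ratio of the summed small loci then ran from -0.15 to 0.15, and that of the summed host genes from -0.11 to -0.06.

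Leaving out 1 library turned the sign of 12 host genes, whose log2 fold changes then ran from -0.38 to 0.82 (SNHG9), -0.37 to 0.11 (SNHG20), -0.71 to 0.33 (SNHG4), -0.12 to 0.10 (SNHG10), -0.041 to 0.054 (SNHG14), -0.27 to 0.15 (SNHG11), -0.24 to 0.16 (SNHG17), -0.24 to 0.025 (SNHG12), -0.30 to 0.026 (SNHG15), -0.00013 to 0.12 (SNHG7), -0.064 to 0.16 (SNHG18) and -0.23 to 0.13 (SNHG8). It also turned SNORD14A (-0.51 to 0.67), SNORD62B (-0.14 to 0.75), SNORA73B (-0.42 to 0.36), SNORD15B (-1.14 to 3.01), SNORA80B (-2.93 to 1.19), NOP58 (-0.19 to 0.023), NOP56 (-0.24 to 0.22) and UPF1 (-0.39 to 0.14), and NOP56 was at 0.0033 under median ratio scaling. Of all 81 small loci, 42 turned sign with 1 library left out and 7 in another setting. With 1 library left out, the log2 fold changes of SNORD17 and SNORD83A ran from -1.03 to -0.27 and from 0.58 to 1.77.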
